A study of Mus musculus with 9 samples.

Results

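The fibroblast growth factor (FGF) receptors were described in RNA from sorted lymphatic endothelial cells (LECs) of 3 tissues. The receptors were the rows of the deposited count table whose symbol is Fgfr1, Fgfr2, Fgfr3, Fgfr4 or Fgfrl1, which gave 5 genes of 23018, all with a symbol of their own. The mice were wild-type C57BL/6 males aged 10 weeks that had received no treatment, and their meninges, diaphragm and skin were the sources of the cells, with no allele or agent that differed between the tissues. The gate kept cells without CD45, the leukocyte antigen, that carried CD31 and podoplanin, and each tissue gave 3 libraries. The design sets LECs of the membranes that cover the brain against those of the periphery. Separate animals and pools are both possible sources of the libraries of 1 tissue, since the labels do not say, and p-values cover the spread between libraries only.

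FGF receptors are tyrosine kinases of the cell membrane that bind secreted FGFs together with heparan sulphate chains, pair up and phosphorylate the adaptor FRS2, which starts the RAS and MAP kinase cascade. Fgfr1 to Fgfr4 encode the signalling receptors, while the protein of Fgfrl1 has the extracellular immunoglobulin-like domains but no kinase domain. In lymphatic endothelium FGFR1 is the receptor best known for carrying FGF2 signals that favour growth and migration, while Fgfr2 and Fgfr3 are known for their roles in bone, cartilage and epithelium and Fgfr4 for its place in muscle progenitors, liver and lung. Alternative splicing of Fgfr1, Fgfr2 and Fgfr3 gives forms that bind different ligands, and counts per gene do not separate these forms.

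RefSeq promoter windows on GRCm38.p6 matched 4 of the 5 receptors, and Fgfr1 was unmatched. The 250 bases before the start are printed for Fgfr4, of whose counts nearly all were in diaphragm libraries, and for Fgfr3, which had counts in libraries of every tissue. The counts were made on another build, mm9, and no measurement here bears on these bases directly. The Fgfr4 window lies at chr13:55152568-55152817, and the windows of the 2 listed Fgfr3 starts at chr5:33721474-33721723 and chr5:33722056-33722305, all on the plus strand. Capitals mark matches on either strand to 4 motifs, the TATA box TATAAA, the CCAAT box, the GC box GGGCGG and the E-box CAGCTG.
Fgfr4: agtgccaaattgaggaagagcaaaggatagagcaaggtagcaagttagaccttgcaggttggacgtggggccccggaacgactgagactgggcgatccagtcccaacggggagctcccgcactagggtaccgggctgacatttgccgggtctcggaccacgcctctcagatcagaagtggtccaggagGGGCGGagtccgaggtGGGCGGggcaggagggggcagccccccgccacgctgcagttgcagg
Fgfr3, first start: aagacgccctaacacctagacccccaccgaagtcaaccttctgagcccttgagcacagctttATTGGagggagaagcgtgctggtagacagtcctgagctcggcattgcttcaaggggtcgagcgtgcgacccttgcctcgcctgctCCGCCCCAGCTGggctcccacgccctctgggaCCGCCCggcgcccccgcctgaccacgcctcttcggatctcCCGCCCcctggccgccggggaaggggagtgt
Fgfr3, second start: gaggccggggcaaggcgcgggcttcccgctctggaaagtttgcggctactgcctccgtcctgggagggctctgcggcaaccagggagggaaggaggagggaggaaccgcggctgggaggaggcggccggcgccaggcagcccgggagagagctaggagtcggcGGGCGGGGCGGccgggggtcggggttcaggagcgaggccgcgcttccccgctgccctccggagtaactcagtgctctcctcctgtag
The Fgfr4 window was 64.0% G or C and held 2 GC boxes and none of the other motifs. The window of the first Fgfr3 start was 66.8% G or C, with 3 GC boxes, 1 CCAAT and 1 CAGCTG, of which 1 GC box directly adjoins CAGCTG. The window of the second was 72.8% G or C, with 2 GC boxes that overlap by 1 base and none of the others. Over all 32851 windows of this length the median was 52.4% G or C, and GGGCGG was in 32.7%, CCAAT in 33.8%, CAGCTG in 13.0% and TATAAA in 12.4%. The windows of Fgfr2 and Fgfrl1 are not printed, because the 50 bases after those starts were in no GENCODE transcript of the gene.

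Total counts per library ran from 26075366 to 34592850, and levels are given as TMM-scaled CPM, which corrects counts for the size and composition of each library. Pdpn, one of the gate genes, was at 84.3 to 237 CPM. Transcripts of Prox1, the master regulator of lymphatic identity, were at 717 to 2042 CPM in the 9 libraries, and Flt4, the receptor of VEGF-C, at 1353 to 3646. Of 10 LEC and gate genes, 4 were lower in meninges than in diaphragm at an unadjusted p under 0.05 by the edgeR test (10.1% of all genes). Against skin 4 were lower too (13.8%), with Lyve1 called, where 1.32% of all genes were called. None was higher in meninges in either comparison. The 10 include Ptprc, the gene of CD45, which the gate excludes. Meningeal libraries also held transcripts of other cells, and unequally. The 13 fibroblast markers summed to 2188, 8685 and 9063 CPM in Meninges replicates 1 to 3, while diaphragm had 1680 to 1994 and skin 742 to 1690. Among them were the collagen genes Col1a1, at 543, 2917 and 2847 CPM in the meningeal libraries, Col1a2, at 488, 2574 and 2614, and Col3a1, at 128, 1144 and 910. The 10 LEC and gate genes summed to 16320, 6661 and 11810 CPM in the same 3 meningeal libraries and to 14800 to 21170 in the other 6. Calls that rest on Meninges replicates 2 and 3 are therefore also given without them, in a fit where meninges is 1 library whose spread is taken from the other tissues. That fit called few genes in all, 11 between meninges and diaphragm and 58 between meninges and skin.

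Fgfr1 was the receptor present throughout, Fgfr2 stood high in meninges and was almost without counts in diaphragm, and Fgfr4 was found in diaphragm and nearly nowhere else. Between meninges and diaphragm, 1 of the 5 receptors was called, Fgfr2, higher in meninges (edgeR quasi-likelihood test, Benjamini-Hochberg adjusted p under 0.05 over 14831 genes), where 0.344% of all genes tested were called in either direction. Between meninges and skin, where 1.32% of genes were called, and between diaphragm and skin, where 0.0405% were, no receptor was called. At an unadjusted p under 0.05 the edgeR test gave 2 receptors between meninges and diaphragm (10.1% of all genes), 1 between meninges and skin (13.8%) and 3 between diaphragm and skin (11.8%). DESeq2 called 2, 0 and 2 receptors, among 630, 1118 and 813 genes that it called in all, many more than the edgeR test called. The libraries of the tissues did not overlap for 3 receptors between meninges and diaphragm (17.1% of all genes tested), for 1 between meninges and skin (20.2%) and for 2 between diaphragm and skin (13.5%). Each tissue's libraries enter 2 of the 3 comparisons, which are therefore not independent.

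**Figure D1:**
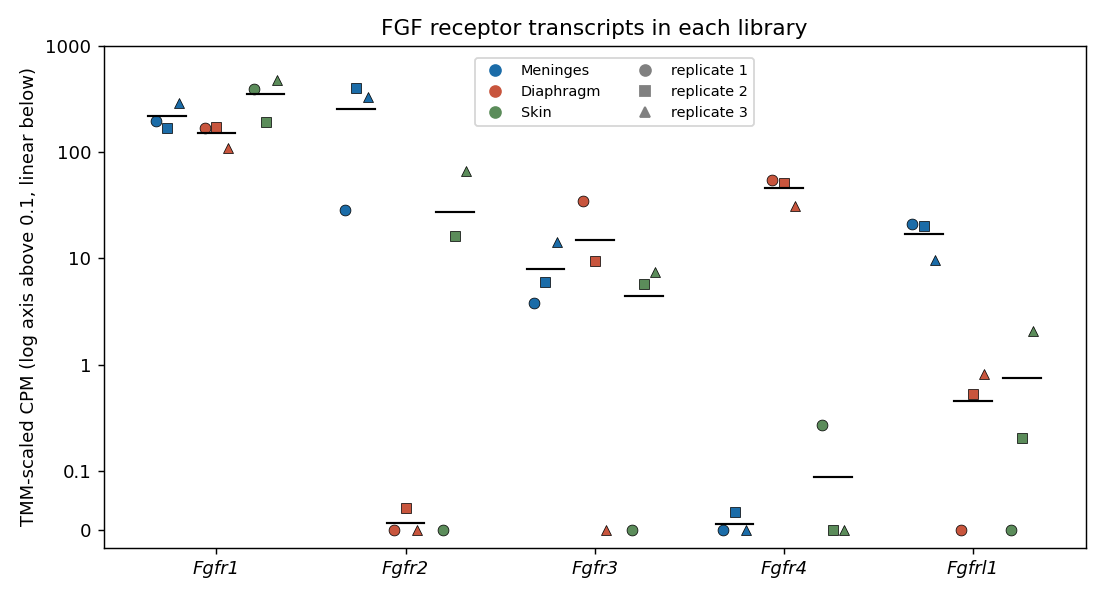
TMM-scaled CPM of the 5 FGF receptors in each of the 9 libraries (y axis, logarithmic above 0.1 and linear below), coloured by tissue, with the replicate as symbol and the mean of 3 libraries as a bar. Fgfr1 lies above 100 CPM in every library, Fgfr4 above 30 CPM in the diaphragm libraries alone, and Fgfr2 spreads from 28.3 to 403 CPM among meningeal libraries.

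Fgfr1, which encodes the main FGF2 receptor of endothelium, stood at 197, 170 and 289 CPM in Meninges replicates 1 to 3, at 169, 173 and 110 CPM in the diaphragm libraries and at 397, 191 and 475 CPM in the skin libraries. All 9 libraries held it at more than 100 CPM. The means were 354 ± 147 CPM in skin, 219 ± 62 in meninges and 151 ± 35 in diaphragm (SD, n = 3 each), and only skin and diaphragm did not overlap. The log2 fold change of diaphragm against skin was -1.23 with a standard error of 0.41 (edgeR adjusted p = 0.321). Meninges differed from diaphragm by 0.54 (standard error 0.41, edgeR adjusted p = 0.806) and from skin by -0.70 (standard error 0.41, edgeR adjusted p = 0.52). Neighbours in this order thus did not differ beyond their spread by the test. In these bulk libraries fewer cells of a type and less RNA per cell cannot be told apart.

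Fgfr2 encodes a receptor with major roles in bone formation and in epithelium. It had 905, 12910 and 12488 counts in Meninges replicates 1 to 3, or 28.3, 403 and 330 CPM. The diaphragm libraries held 1 count together, in replicate 2, and the skin libraries were at 0, 16.2 and 66.3 CPM. Every meningeal library lay above every diaphragm library, while Meninges replicate 1 lay below Skin replicate 3. The pooled counts per effective library size were 21100 times higher in meninges than in diaphragm, with an exact 95% counting interval from 3780 to 832000 that covers counting error only. Fgfr2 was higher in meninges than in diaphragm (fitted log2 fold change 13.89, which depends on the prior count where a group has 1 count, edgeR adjusted p = 0.0264). With only the replicate 1 library of meninges, the fitted value was 10.69 and the edgeR adjusted p = 0.262, and the call was lost without Meninges replicate 2 or 3 or without any 1 diaphragm library (edgeR adjusted p from 0.0658 to 0.117).

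Against skin, Fgfr2 in meninges had a log2 fold change of 3.21 with a standard error of 1.47 (edgeR adjusted p = 0.351), and with Meninges replicate 1 alone it was 0.03. Diaphragm against skin gave a fitted log2 fold change of -10.68 (edgeR adjusted p = 0.114), with pooled counts 2080 times higher in skin (exact 95% counting interval 373 to 82300). That difference was called without Skin replicate 1, the skin library with no Fgfr2 count (edgeR adjusted p = 0.00576), and with the replicate number as a block (edgeR adjusted p = 0.0476). The order of the means was meninges at 254 ± 199 CPM, skin at 27.5 ± 34.6 and diaphragm at 0.0126 ± 0.0219 (SD, n = 3 each).

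Markers of bone-forming cells and fibroblasts stood beside Fgfr2 in these libraries. The 12 bone and cartilage markers summed to 215, 1398 and 890 CPM in Meninges replicates 1 to 3, to 31.0 to 143 in diaphragm and to 62.7 to 178 in skin, with 1, 5 and 4 of the 12 at 0 in the 3 tissues. Runx2, the osteoblast transcription factor, was at 79.1, 563 and 339 CPM in Meninges replicates 1 to 3, at most at 0.59 in diaphragm, and at 0.271, 5.07 and 13.4 in Skin replicates 1 to 3. The libraries with more Fgfr2 within meninges and within skin also had more Runx2. Alpl, alkaline phosphatase of mineralising cells, was at 103, 265 and 241 CPM in the meningeal libraries. It was at 1.6, 2.6 and 3.4 CPM in the diaphragm libraries and at 0, 0.284 and 0 in Skin replicates 1 to 3. Sp7, a second osteoblast factor, was at 1.25, 27.3 and 5.0 CPM in the meningeal libraries and had no count in skin. Within skin, Alpl and Sp7 did not rise with Fgfr2. Among 10 keratinocyte markers, Krt5 was at 25.3 and Krt14 at 107 CPM in Skin replicate 2, both without a count in replicates 1 and 3. All 10 summed to 0.0774, 218 and 9.05 CPM in Skin replicates 1 to 3, where Fgfr2 was at 0, 16.2 and 66.3 CPM. The part of bone-forming cells, fibroblasts and keratinocytes in the Fgfr2 level was not tested.

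Fgfr4 encodes a receptor known from muscle progenitors. It had 1497, 1367 and 873 counts in Diaphragm replicates 1 to 3, or 55.2, 51.8 and 31.3 CPM. Meninges held 1 count over the 3 libraries, in replicate 2, and skin 7 counts, all in replicate 1. The 3 diaphragm libraries lay above the other 6, and their mean was 46.1 ± 12.9 CPM (SD, n = 3) against 0.0104 ± 0.0180 in meninges and 0.0903 ± 0.156 in skin. Pooled counts per effective library size were 4670 times higher in diaphragm than in meninges (exact 95% counting interval 838 to 184000). The edgeR test across all genes gave an adjusted p = 0.0515 for meninges against diaphragm, with a fitted log2 fold change of -11.64 that depends on the prior count, and an adjusted p = 0.143 for diaphragm against skin, with a log2 fold change of 8.90 (standard error 2.04). The first of these differences passed in 9 of 19 alternative settings, among them the fits without any 1 skin library, limma voom and the robust fit. Between meninges and skin the edgeR adjusted p was 0.573.

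Muscle stem cell markers were also highest in the diaphragm libraries. The 12 markers of muscle stem cells and muscle summed to 952, 1546 and 557 CPM in Diaphragm replicates 1 to 3, to 22.8 to 36.9 in meninges and to 81.2 to 269 in skin. Pax7, a transcription factor that marks muscle stem cells, was at 288, 165 and 91.9 CPM in the diaphragm libraries, at 0 in meninges and at 1.99 CPM in Skin replicate 2 alone. Myf5, a myogenic factor, was at 27.1, 34.8 and 18.7 CPM in diaphragm and without a count elsewhere, and Myod1 at 13.1, 1.70 and 3.12 CPM in diaphragm. None of the 12 was at 0 in diaphragm, while 5 were in meninges and 4 in skin. The part of muscle cells in the Fgfr4 level was not tested.

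Fgfr3 encodes a receptor best known from cartilage, where it restrains growth of long bones. It was at 3.79, 6.00 and 14.2 CPM in the meningeal libraries, at 34.9, 9.54 and 0 in the diaphragm libraries and at 0, 5.81 and 7.49 in the skin libraries. The tissues overlapped in every comparison, since Diaphragm replicate 3 and Skin replicate 1 had no count although Diaphragm replicate 1 was the highest of all. The means of 14.8 ± 18.0 CPM in diaphragm, 7.99 ± 5.48 in meninges and 4.43 ± 3.93 in skin (SD, n = 3 each) did not differ beyond this spread. The edgeR adjusted p was 0.976 for meninges against diaphragm, 0.937 for meninges against skin and 0.84 for diaphragm against skin, and the sign of the first value turned without Diaphragm replicate 1 (log2 fold change 0.74).

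Fgfrl1, the member without a kinase domain, had 671, 642 and 368 counts in Meninges replicates 1 to 3, or 21.0, 20.1 and 9.73 CPM. It was at 0, 0.530 and 0.824 CPM in diaphragm and at 0, 0.203 and 2.06 in skin. All 3 meningeal libraries lay above the other 6, and Meninges replicate 1 was the highest. The log2 fold change against diaphragm was 5.22 with a standard error of 2.46 (edgeR adjusted p = 0.508), and against skin 4.49 with a standard error of 2.38 (edgeR adjusted p = 0.453). Neither difference was called in any of 19 alternative settings, in which the smallest adjusted p was 0.0885 and 0.092. Diaphragm and skin, at 0.451 ± 0.418 and 0.753 ± 1.13 CPM (SD, n = 3 each), did not differ beyond their spread (edgeR adjusted p = 0.952).

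To compare the receptors with each other, levels were divided by the length of all exons of the gene merged, and are given here as CPM per kb. In meninges Fgfr2 (24.6 ± 19.3 CPM per kb) and Fgfr1 (22.1 ± 6.3) were close to each other within their spread, followed by Fgfrl1 (6.09 ± 2.25) and Fgfr3 (1.12 ± 0.77), with Fgfr4 at 0.00294 ± 0.00509. In diaphragm Fgfr1 (15.3 ± 3.5 CPM per kb) and Fgfr4 (13.0 ± 3.7) were likewise within their spread, ahead of Fgfr3 (2.07 ± 2.52). In skin Fgfr1 (35.9 ± 14.9 CPM per kb) stood above Fgfr2 (2.66 ± 3.35), Fgfr3 (0.619 ± 0.549) and Fgfrl1 (0.271 ± 0.407), and these last 3 did not differ beyond their spread (SD, n = 3 throughout).

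The mix of the 4 kinase receptors is given as a description, with no test. In skin, Fgfr1 made up 91.8% ± 7.1 of their summed level per kb. In diaphragm, Fgfr1 made up 51.2% ± 5.2 and Fgfr4 43.1% ± 1.4 (SD, n = 3 each). In meninges the mix depended on the library, with Fgfr1 at 85.9%, 30.1% and 46.3% and Fgfr2 at 11.8%, 68.4% and 50.6% in replicates 1 to 3. Meninges replicate 1 thus resembled Skin replicates 2 and 3, where Fgfr1 made up 89.0% and 86.6% and Fgfr2 7.24% and 11.6%. With the longest transcript as the length, the diaphragm shares were 64.4% for Fgfr1 and 29.5% for Fgfr4. The summed level was 47.8 ± 21.5 CPM per kb in meninges, 30.3 ± 9.2 in diaphragm and 39.2 ± 17.0 in skin, and the tissues overlapped.

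**Figure D2:**
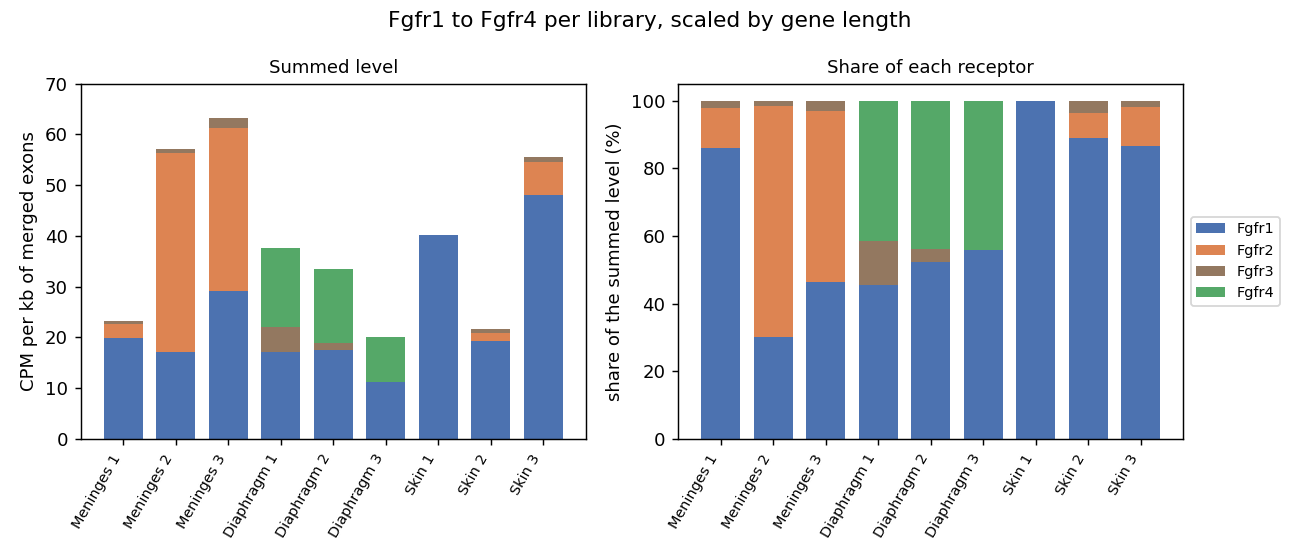
Summed level of Fgfr1 to Fgfr4 (left, CPM per kb of merged exons) and the share of each receptor in that sum (right, percent) in each of the 9 libraries. Fgfr4 takes 41.5% to 44.2% in the diaphragm libraries, Fgfr2 takes 11.8% to 68.4% in the meningeal libraries, and Fgfr1 takes 86.6% to 99.8% in the skin libraries.

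The genes with the most similar pattern were found by Pearson's r of log2(CPM + 1) over the 9 libraries, among 8762 named genes (8763 for Fgfrl1) at an average log2 CPM of at least 3. These r are descriptions: genes high in the libraries of 1 tissue and near 0 elsewhere reach a high r with each other. For Fgfr2 they were Camk4 (r = 0.997), a calcium-dependent kinase, Cacna1g (0.986), a calcium channel, Bgn (0.967), the matrix proteoglycan biglycan, Col11a1 (0.963), a fibrillar collagen of cartilage, and Runx2 (0.952). Camk4 stood at 23.0, 135 and 120 CPM in Meninges replicates 1 to 3, at no more than 0.322 in diaphragm and at 0, 10.8 and 31.2 in Skin replicates 1 to 3, and its 5 highest libraries had the same order as those of Fgfr2. For Fgfr4 they were Myf5 (r = 0.998), Chodl (0.998), the membrane lectin chondrolectin, Pax7 (0.987), Hmcn2 (0.978), a hemicentin of the extracellular matrix, and Mybpc1 (0.978), a myosin-binding protein of skeletal muscle. Chodl was at 306, 370 and 108 CPM in diaphragm, with 1 count in Meninges replicate 2 and none in skin.

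Fgfrl1 was most like Pkib (r = 0.956), an inhibitor of protein kinase A, Ttr (0.954), the thyroid hormone carrier made by choroid plexus, the neurotrophin receptor gene Ntrk3 (0.951), Ism1 (0.950) and Adamtsl2 (0.949), a matrix protein. Ttr was at 510, 529 and 429 CPM in Meninges replicates 1 to 3 and at no more than 0.0716 elsewhere. The 12 markers of astrocytes, arachnoid and choroid plexus summed to 819, 629 and 753 CPM in those libraries, against 21.1 to 80.5 in diaphragm and 33.1 to 53.7 in skin. Ttr is itself among the 12 and made up most of each meningeal sum. The astrocyte gene Aqp4 was at 0 in every diaphragm and skin library and at 0.156 CPM in Meninges replicate 2 alone. Gfap, the astrocyte filament gene, was at 6.86 CPM in Meninges replicate 1 alone. The glutamate transporter genes Slc1a3, at 0.188, 7.66 and 36.7 CPM in Meninges replicates 1 to 3, and Slc1a2, at 0.0313, 1.72 and 33.1, were without a count in diaphragm and at no more than 2.68 and 7.35 CPM in skin. Of the 12 markers, 6 were at 0 in diaphragm, 4 in skin and none in meninges. The part of astrocytes, arachnoid and choroid plexus in the Fgfrl1 level was not tested. Fgfr1 was most like Ube4bos1 (r = 0.937) and Hnrnpk (0.923), an RNA-binding protein, with Magoh, Commd10 and Enthd2 from 0.908 to 0.921, and Fgfr3 most like Ndufa4 (0.964), a respiratory chain protein, and Scaf8 (0.944), with Msi2, Ifit2 and Zfp84 from 0.904 to 0.912.

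**Figure D3:**
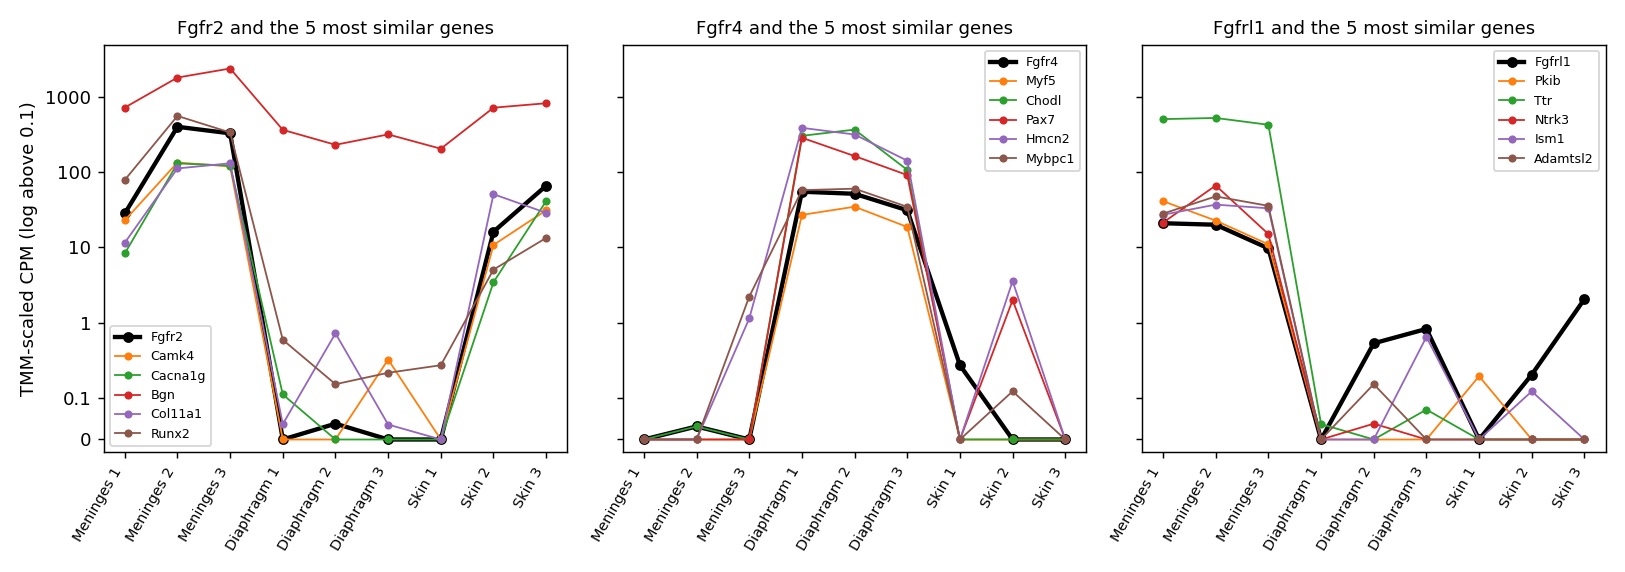
TMM-scaled CPM (y axis, logarithmic above 0.1) of Fgfr2, Fgfr4 and Fgfrl1 in black and of the 5 genes most similar to each over the 9 libraries (x axis). Lines only join the values of 1 gene, and the libraries have no order within a tissue. The genes grouped with Fgfr4 are all above 18 CPM in the diaphragm libraries and at most at 3.57 CPM in the others.

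By the mean over the 9 libraries Fgf2 was the most abundant ligand. In diaphragm the mean of Fgf1 was higher (45.5 against 21.9 CPM), a mean that rests on Diaphragm replicate 1. In Diaphragm replicates 2 and 3 Fgf1 was lower than Fgf2. Of 18 secreted FGFs listed, 7 had a row in the table, 4 passed the filter on low counts, and none was called in any comparison. At an unadjusted p under 0.05 the edgeR test gave 1 in each comparison, where 10.1%, 13.8% and 11.8% of all genes passed. DESeq2 called 1, 1 and 0 between meninges and diaphragm, meninges and skin, and diaphragm and skin. Fgf2, the ligand best known in endothelium, was at 69.5, 217 and 63.9 CPM in Meninges replicates 1 to 3, at 13.8, 21.4 and 30.3 in diaphragm and at 3.79, 15.1 and 23.4 in skin. All meningeal libraries lay above the other 6, and the log2 fold change was 2.42 against diaphragm (standard error 0.81, edgeR adjusted p = 0.324) and 3.05 against skin (standard error 0.83, edgeR adjusted p = 0.106). Fgf1, which binds every FGF receptor, was at 108 CPM in Diaphragm replicate 1 and at no more than 22.2 in any other library. Fgf18, a ligand with a role in bone growth, did not pass the filter and was not tested. It was at 0, 2.75 and 41.1 CPM in Meninges replicates 1 to 3 and without a count elsewhere. Fgf7, a ligand of the epithelial form of FGFR2, reached 23.0 CPM in Skin replicate 2 and was without a count in the other 2 skin libraries. Of the 4 FGF homologous factors, which stay inside the cell, none was called by edgeR or DESeq2 and none had an edgeR unadjusted p under 0.05. Fgf11 reached 178 CPM in Meninges replicate 2 and Fgf12 69.2 in Diaphragm replicate 3, and both overlapped between all tissues.

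Among partners at the cell surface and the enzymes that make and trim heparan sulphate, 3 genes were called. Of 17 tested co-receptors and partners, Gpc3, a glypican carrying heparan sulphate, was called higher in meninges than in skin, at 6.73, 11.7 and 44.0 CPM against no count in skin, a log2 difference of at least 9.06 when 3 counts over all skin libraries are taken as the floor (edgeR adjusted p = 0.0406). Between meninges and skin 1.32% of all genes were called. The edgeR unadjusted p there was under 0.05 for 7 of the 17 (13.8% of all genes), and DESeq2 called 4. None was called in the other 2 comparisons. There, the edgeR unadjusted p was under 0.05 for 3 and 5 (10.1% and 11.8% of all genes), and DESeq2 called 1 and 4. The median log2 fold change of the list was 0.57 between meninges and diaphragm, 1.94 between meninges and skin and 0.79 between diaphragm and skin. Over all genes tested it was 0.05, 0.08 and 0.01. Hspg2, the basement membrane proteoglycan perlecan, and Flrt2, a membrane partner of FGF receptors, had the highest counts of the list and were not called. Of 12 tested heparan sulphate enzymes, both sulfatases that remove sulphate groups from the chains were called, each in 1 comparison. These were Sulf2 between meninges and diaphragm (0.344% of all genes called) and Sulf1 between meninges and skin (1.32%). Between diaphragm and skin none was called. There, 4 had an edgeR unadjusted p under 0.05 (11.8% of all genes), and DESeq2 called 2. Between meninges and skin 5 had an edgeR unadjusted p under 0.05 (13.8% of all genes) and DESeq2 called 3. Between meninges and diaphragm these counts were 1 (10.1% of all genes) and 1. Sulf2 stood at 301, 626 and 620 CPM in the meningeal and at 60.3, 87.3 and 124 in the diaphragm libraries, a log2 fold change of 2.51 with a standard error of 0.43 (edgeR adjusted p = 0.0223).

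Sulf2 in skin was at 231, 138 and 150 CPM, below the meningeal libraries (edgeR adjusted p = 0.0943). Sulf1 was higher in meninges than in skin, at 122, 205 and 103 CPM against 8.32, 19.2 and 1.97 (log2 fold change 3.86, edgeR adjusted p = 0.0329), and the diaphragm libraries, at 273, 120 and 62.5 CPM, overlapped the meningeal ones. The Sulf2 call was lost without Diaphragm replicate 1 or 2 or Meninges replicate 2 or 3, where its log2 fold change was 2.29 to 2.45. The Sulf1 call ended when Skin replicate 1 or 3 or Meninges replicate 2 or 3 was left out, where its log2 fold change was 3.34 to 4.05, and the Gpc3 call without Meninges replicate 2 or 3 or any 1 skin library. With Meninges replicate 1 alone, the log2 fold change was 1.73 for Sulf2 (edgeR adjusted p = 1) and 3.60 for Sulf1 (edgeR adjusted p = 0.134), and the edgeR adjusted p for Gpc3 was 0.178. The summed fibroblast markers given above were higher in Meninges replicates 2 and 3 than in the other 7 libraries. Their part in these levels was not tested.

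Inside the cell, none of 28 adaptors and kinases of the pathway, from Frs2 to Mapk3, was called in any comparison. Their median log2 fold change was 0.15 between meninges and diaphragm, 0.26 between meninges and skin and 0.08 between diaphragm and skin, against 0.05, 0.08 and 0.01 over all genes. The edgeR unadjusted p was under 0.05 for 0, 3 and 0 of the 28 (10.1%, 13.8% and 11.8% of all genes), and DESeq2 called 0, 1 and 0. Plcg1, a phospholipase that docks on the receptor, was the most abundant in counts, and its mean CPM was 197 ± 63 for meninges, 194 ± 75 for diaphragm and 342 ± 113 for skin (SD, n = 3 each), ahead of Nras, a RAS gene. Most of the listed feedback inhibitors are induced by MAP kinase signalling and then damp it, and the list also holds Lgals3, the gene of galectin-3. Of 11 tested, none was called. By the edgeR test 0, 2 and 1 had an unadjusted p under 0.05 (10.1%, 13.8% and 11.8% of all genes), and DESeq2 called 0, 0 and 1. Spred1 and Dusp7 had the highest counts. Dusp6, a phosphatase of ERK and a common readout of FGF signals, was at 52.2 ± 47.0, 59.9 ± 36.1 and 55.7 ± 50.2 CPM in meninges, diaphragm and skin (SD, n = 3 each). Spry1, a Sprouty inhibitor, had 28.7, 22.1 and 31.7 CPM in the meningeal, 123, 87.8 and 102 in the diaphragm and 1.35, 54.5 and 54.3 in the skin libraries. The Spry1 libraries of diaphragm lay above the other 6, and the edgeR adjusted p was 0.518 against meninges and 0.557 against skin. Dusp6 and Spry1 were picked after their values were seen.

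Of 9 tested transcription factors and cycle genes that respond to FGF signals, none was called. By the edgeR test 2, 3 and 3 had an unadjusted p under 0.05 (10.1%, 13.8% and 11.8% of all genes), and DESeq2 called 1, 1 and 2. Egr1, an immediate early factor also induced by tissue dissociation, had 98.2, 181 and 384 CPM in the meningeal, 1027, 1068 and 735 in the diaphragm and 258, 741 and 219 in the skin libraries (meninges against diaphragm edgeR adjusted p = 0.163). Ets1, an endothelial transcription factor, was at 222 ± 120, 215 ± 45 and 236 ± 139 CPM in meninges, diaphragm and skin (SD, n = 3 each). The list of other receptor tyrosine kinases had 26 tested genes and also holds Igf2r, a receptor without a kinase domain that was not called. Of the 26, 3 were called, all higher in meninges than in skin, where 1.32% of all genes were called. Between meninges and skin the edgeR unadjusted p was under 0.05 for 11 higher and 1 lower (13.8% of all genes). DESeq2 called 9 there, and the median log2 fold change was 1.98 against 0.08 over all genes. None was called in the other 2 comparisons. There, 6 and 7 had an edgeR unadjusted p under 0.05 (10.1% and 11.8% of all genes), and DESeq2 called 2 and 5. The median log2 fold change was 0.18 between meninges and diaphragm and 1.05 between diaphragm and skin, against 0.05 and 0.01 over all genes. Ddr2, a collagen receptor, was at 68.0, 425 and 320 CPM in meninges against 16.8, 13.0 and 11.3 in skin (edgeR adjusted p = 0.0106), and its call held whichever of the 9 libraries was omitted while with Meninges replicate 1 alone the log2 fold change was 2.28 against 4.31 (edgeR adjusted p = 0.766). Insr, the insulin receptor (edgeR adjusted p = 0.0414), was called in 2 of those 9 refits, and Ntrk3 (edgeR adjusted p = 0.0295) in 3. Insr was at 416, 167 and 178 CPM in meninges and 55.9, 38.0 and 24.3 in skin, and Ntrk3 at 21.4, 66.7 and 15.1 CPM in meninges with no count in skin. Insr was lost without Diaphragm replicate 2 or any 1 meningeal or skin library, and Ntrk3 without any 1 meningeal or skin library. With Meninges replicate 1 alone, Insr stayed called (log2 fold change 3.37, edgeR adjusted p = 0.0242) and Ntrk3 did not (edgeR adjusted p = 0.688). Per kb, Flt4 (290 ± 121, 300 ± 58 and 418 ± 37 CPM per kb in meninges, diaphragm and skin) and the VEGF receptor gene Kdr (46.2 ± 16.1, 84.0 ± 14.7 and 68.7 ± 13.8) stood above Fgfr1 in every tissue (SD, n = 3 each).

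**Figure D4:**
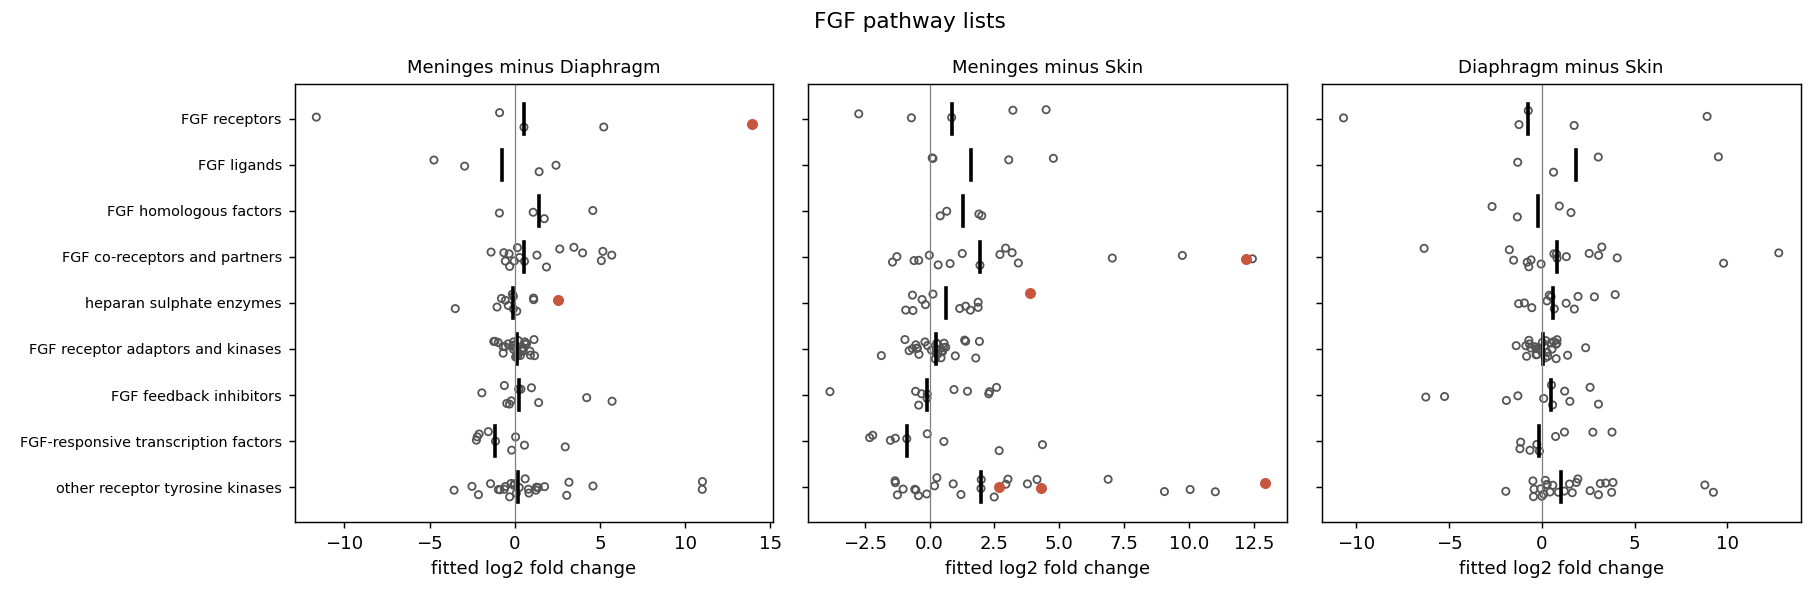
Fitted log2 fold change (x axis) of every tested gene in the FGF receptor list and the 8 other pathway lists (rows), for each pair of tissues. Open circles are genes that were not called, filled circles are called genes and black bars are list medians, and far values such as 13.89 for Fgfr2 come from tissues with 0 or 1 count.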

How the data were processed

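RNA of 9 libraries of sorted mouse LECs was extracted with PicoPure and then amplified by the Ovation RNA-Seq System V2 of NuGEN, per the labels' protocols. The authors deposited raw counts per gene, unnormalized, and FastQC, STAR, HTSeq and the mm9 build are named in the submitters' processing notes. Not given in the sources used here are versions, strand setting and the handling of reads that match several genes. Reads shared between similar or overlapping genes may be split unevenly. Of 23018 rows, 15831 carried a usable symbol, and 7100 more were named from the annotation. The 15831 leave out 22 symbols that had turned into dates, which were replaced by the annotated name or the Ensembl identifier.

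Genes passing filterByExpr (14831) were fitted with edgeR 4.0.16 in R 4.3.3 by the quasi-likelihood test, with TMM scaling and 1 mean per tissue over all 9 libraries. A Benjamini-Hochberg adjusted p under 0.05 is a call. Levels per kb used merged exon lengths of GENCODE vM21 on GRCm38 and are approximate for counts made on mm9. Ratios with 1 to 3 counts in a group carry an exact binomial 95% interval, and a group at 0 was set to a floor of 3 counts over the group, both for counting error only. The fit was tested on simulated data.

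The receptors, lists and tests were chosen with earlier results of these data known. Named were the receptors, the 4 ligands with the highest mean CPM, called members and the 2 members with the highest mean CPM of each other list, the 5 most similar genes of each receptor, and marker sums with their first 3 members (Krt1 was not analysed here) for lists that stand beside a result. Slc1a2 was picked after its values were seen. Alternatives were DESeq2 1.42.0, its size factors, upper-quartile factors, no filter, 50 counts in 3 libraries, 2 tissues only, a replicate block, limma 3.58.1 voom with quality weights, a robust fit, Meninges replicate 1 as the only meningeal library, and each library left out.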

Additional observations from a re-analysis of the deposited data

How the results depend on the processing

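Libraries of 1 tissue spread widely (common biological coefficient of variation 1.24), and depth limits what a count of 0 shows. Between meninges and diaphragm 51 genes and 1 receptor, Fgfr2, were called, and 630 and 2 with DESeq2, 298 and 2 without the filter, 108 and 2 with 2 tissues only, 11 and 0 with replicate 1 alone for meninges (assumed to vary like the other tissues), and 19 to 105 and 0 to 2 when each library was left out in turn. With 50 counts in 3 libraries 2 receptors were called, and with limma voom 200 genes. The second receptor was Fgfr4, which voom and the robust fit called in place of Fgfr2 (adjusted p of Fgfr2 0.133 and 0.166). Fgfr2 was called in 11 of 19 alternatives, with adjusted p from 1.66e-12 to 0.262, and Fgfr4 in 9 of 19, with adjusted p from 1.38e-09 to 0.717. Between meninges and skin 196 genes and 0 receptors were called, 1118 genes with DESeq2, 610 genes and 1 receptor (Fgfr2) without the filter, 414 genes with voom, 58 with replicate 1 alone for meninges, and 74 to 236 genes and 0 to 0 receptors with each library left out. Between diaphragm and skin 6 genes and 0 receptors were called, 813 and 2 with DESeq2, 305 and 2 without the filter, 13 genes with 50 counts in 3 libraries, 1 with 2 tissues only, 1 with voom, 36 with the robust fit, and 2 to 58 genes and 0 to 1 receptors with each library left out. The sign turned for Fgfr3 between meninges and diaphragm with voom (log2 fold change 2.92) and without Diaphragm replicate 1 (0.74, with -1.60 the lowest when each library was left out), for Fgfr3 between meninges and skin with Meninges replicate 1 alone (-0.25), for Fgfr4 between meninges and skin without Skin replicate 1 (1.73, lowest -4.43), and for Fgfrl1 between diaphragm and skin with voom (0.75) and without Skin replicate 3 (2.10, lowest -1.49), none of them called. The cause of these changes was not tested. Libraries of different tissues share replicate numbers. After the tissue mean was removed, same-numbered libraries correlated at -0.01 to 0.05, and 2 of 9 correlated best with their own number. With 3 libraries per tissue, these values cannot decide whether same-numbered libraries share an animal or a batch. With the replicate block 70, 231 and 16 genes and 1, 0 and 1 receptors were called in the 3 comparisons.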

Other observations

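Kl, the co-receptor klotho of endocrine FGFs, was at 18.8, 10.7 and 51.0 CPM in Meninges replicates 1 to 3 and at no more than 1.52 in the other 6 libraries (edgeR adjusted p = 0.387 against diaphragm and 0.106 against skin). Fgfbp1, a carrier that releases FGFs from the matrix, was at 45.4 CPM in Skin replicate 2. Both were picked after their values were seen.

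Marker sums not given above also differed between libraries. The 11 meningeal fibroblast markers summed to 228, 1058 and 781 CPM in Meninges replicates 1 to 3 and to 32.1 to 144 in the other 6 libraries. The 10 mural cell markers summed to 538 to 1343 CPM in meninges, 339 to 557 in diaphragm and 39.3 to 297 in skin. The 12 blood endothelial markers summed to 3416, 1438 and 2072 CPM in Meninges replicates 1 to 3, to 1642 to 2436 in diaphragm and to 1218 to 1447 in skin. Of the 12, Plvap alone was called between meninges and diaphragm, higher in meninges (0.344% of all genes called). Against skin 4 were called higher and 1 lower in meninges (1.32% of all genes called). Diaphragm replicate 1 held 1240 CPM of 9 mesothelial markers, against 45.8 and 108 in replicates 2 and 3 and at most 25.3 elsewhere. The 10 keratinocyte markers, whose sums in skin are given above, summed to at most 57.1 CPM in meninges and 2.31 in diaphragm. The 8 Schwann cell and neuron markers summed to 24.5 to 106 CPM in meninges and to at most 14.6 elsewhere, and the 8 leukocyte markers to 0.155 to 126 CPM over the 9 libraries.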
